A study of Arabidopsis thaliana with 6 samples.

Results

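The family described here is the set of plant sugar transporters: the SWEET sugar uniporters, the STP monosaccharide symporters, the SUC sucrose symporters, the polyol and inositol transporters, the ERD6-like transporters and the tonoplast monosaccharide transporters (TMT). A list of 60 loci of Arabidopsis thaliana was looked up by locus identifier among the probe sets that the platform's gene table assigns to a single gene, and each gene was read from 1 probe set. In this way 32 of the 60 loci (53.3%) were measured, among 13356 genes in all. The measured members were 15 of 16 SWEET loci, 4 of 13 STP loci, 2 of 5 polyol transporters, 8 of 15 ERD6-like loci and all 3 TMT loci. Of the 4 SUC loci and the 4 inositol transporter loci 0 were measured, so the values below hold no symporter of sucrose. SWEET12, the close partner of SWEET11, and STP1 were also not analysed here. Another 3 of the 60 loci appear only in probe sets shared by several genes and were not read.

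RNA came from wild-type Col-0 plants in both groups. The leaf group was leaves of 20-day-old seedlings, and the callus group was calli that had grown from leaf blades of that age during 20 days on callus-inducing medium (CIM). CIM supplies the cytokinin kinetin, the synthetic auxin 2,4-dichlorophenoxyacetic acid and glucose, so hormones, external sugar, wounding and time in culture differed together with the tissue. The study's methods put explants in the dark, while the labels give a daily light period to every sample, so whether light differed too cannot be told from the sources. Each group had 3 Affymetrix GeneChip arrays, described in the study as independent experiments.

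Plants move sugar between cells and compartments with a small number of transporter families. SWEET proteins let sugars pass down their gradient in either direction, and some of them release sucrose from leaf cells on its way to the phloem. STP proteins take monosaccharides into the cell together with protons. TMT proteins load sugar into the vacuole in exchange for protons, whereas ERD6-like proteins are a large and less studied family, some members of which release sugar from the vacuole.

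Values are log2 signals made by RMA (robust multi-array average), which scales the single probes of all arrays to one distribution and gives no detection call. The probe set values used here were close to one distribution but not exactly on it. Array medians lay between 5.79 and 5.95, and the first quartile between 4.15 and 4.23. The lowest Pearson correlation across genes was 0.997 among callus arrays and 0.995 among leaf arrays, and it was 0.765 to 0.775 between tissues. The median SD of the 32 members was 0.0816 in callus and 0.112 in leaf, close to the 0.0867 and 0.103 of all genes. RNA integrity was read from the actin and GAPDH control probe sets as their signal at the 3' end less that at the 5' end. For actin this came to 1.53 ± 0.0549 in callus against 1.84 ± 0.268 in leaf (SD, n = 3), and in the older version of the probe sets to 3.75 ± 0.0797 against 3.01 ± 0.218, which is the opposite order. For GAPDH it was 0.367 ± 0.0862 against 0.247 ± 0.0654, and 0.55 ± 0.133 against 0.980 ± 0.0653 in the older version, each opposite to actin.

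The labels were checked against tissue markers. All 5 measured genes of 7 listed for photosynthetic leaf cells were lower in callus, with log2 fold changes from -8.77 to -6.84. Their summed signal on the linear scale was 235 to 259 in callus and 45526 to 48567 in leaf. PRK, for the Calvin cycle enzyme phosphoribulokinase, lay below the first quartile on all 3 callus arrays. Both measured genes of 6 root and callus regulators, BBM and LBD16, were higher in callus, and their summed signal was 356 to 439 in callus and 37.8 to 42.5 in leaf. The 2 measured guard cell genes of 5 were lower, with sums of 37.7 to 44.9 in callus and 448 to 527 in leaf. Of 8 phloem markers and 7 xylem markers 0 were measured, so the vascular share of either tissue is not known from these lists. The 3 measured pollen genes of 5 were not called, with sums of 42.7 to 50.9 in callus and 42.4 to 44.8 in leaf.

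The question was how the sugar transporter genes differ in expression between callus and leaf. A gene was called when limma gave a Benjamini-Hochberg adjusted p under 0.05 over all genes and the change was more than 2-fold. Of the 32 measured members, 11 were called (34.4%, against 29.6% of all genes tested). Of these, 9 were lower in callus (28.1%, against 13.2% of all genes) and 2 were higher (6.25%, against 16.4%). The 9 lower genes were SWEET11, STP3, TMT1, SFP1, SWEET2, SFP2, AT1G19450, AT1G54730 and SWEET1. The 2 higher genes were TMT2 and SWEET15. The callus and leaf arrays did not overlap for 19 members (59.4%, against 66.0% of all genes). Of the calls, 3 exceeded 8-fold (9.38% of members, against 6.52% of genes), and all 3 were falls. With the fold threshold dropped, 19 members passed (59.4%, against 61.2%). On each of the 6 arrays SWEET7, SWEET14 and AT3G05150 stayed under the first quartile (9.38% of members, against 21.6% of genes). The median log2 fold change was -0.15 over the members and 0.01 over all genes. These shares are descriptions, since the loci were listed with earlier results of these data known.

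**Figure D1:**
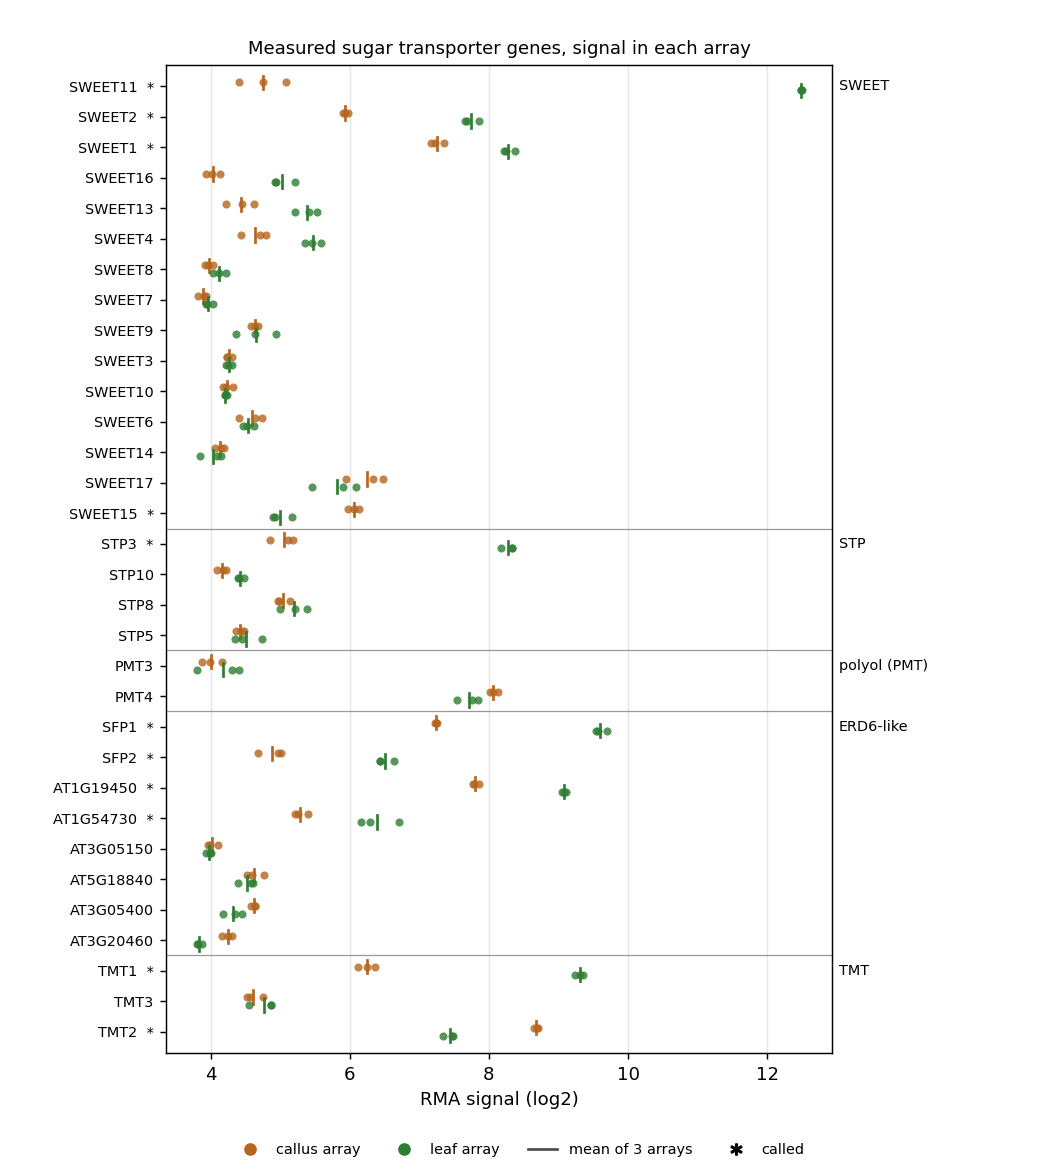
Log2 RMA signal (horizontal axis) of the 32 measured sugar transporter genes in each of 3 callus arrays (brown points) and 3 leaf arrays (green points), with the group means as vertical bars and called genes starred. The leaf arrays of SWEET11 stand between 12.48 and 12.50, and its callus arrays between 4.40 and 5.08.

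The counts depended on how the arrays were scaled. The median change over all genes moved by 0.26 after centring on the hybridization controls, by 0.76 on the poly-A controls and by -0.59 on TIP41, a reference gene, and each member moved by the same amount. With the poly-A controls 5 members were lower (15.6%, against 8.21% of all genes) and 6 were higher (18.8%, against 34.1%). With TIP41 12 were lower (37.5%, against 20.9%) and 0 were higher (0%, against 9.41%). With the hybridization controls 7 were lower (21.9%, against 11.3%) and 2 were higher (6.25%, against 20.8%). SWEET11, STP3, TMT1, SFP1 and SWEET2 were called lower under each of these scalings. STP3 and TMT1 were short of 8-fold on the hybridization controls (-2.97 and -2.80) and on the poly-A controls (-2.47 and -2.30). Since the medians of the SWEET, STP and TMT families (-0.08, -0.21 and -0.15 as deposited) were above 0 on the hybridization and the poly-A controls, no direction is given for any of these 3 families. For the ERD6-like genes the median was -0.53 and became 0.23 once the arrays were set to the poly-A controls. Over all genes, 55.4% of the calls were rises as deposited, 80.6% with the poly-A controls and 31.0% with TIP41.

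**Figure D2:**
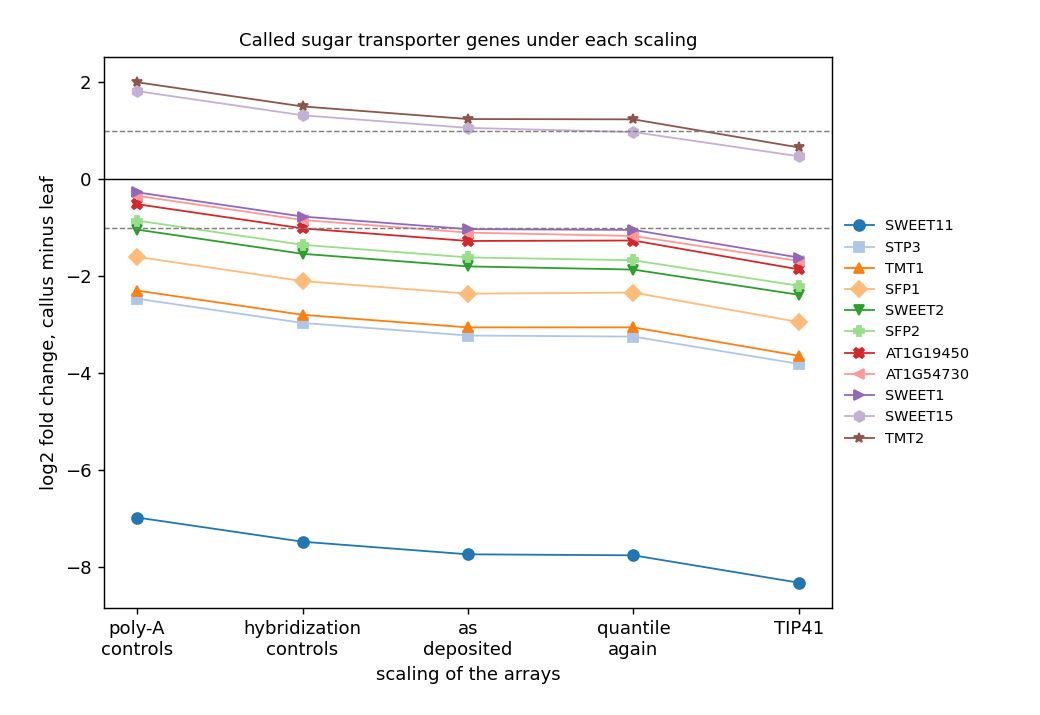
Log2 fold change, callus minus leaf (vertical axis), of the 11 called sugar transporter genes as deposited, after centring on 3 kinds of control and after quantile normalization applied again, with dashed lines at 2-fold. SWEET11 lies between -8.33 and -6.99, while SWEET1 lies between -1.62 and -0.27 and crosses the 2-fold line.

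Among the plasma membrane exporters, SWEET11 showed the largest change of the 32 members. SWEET11 releases sucrose from phloem parenchyma cells of the leaf, the step before the phloem is loaded. Its signal was 4.40, 5.08 and 4.76 in the 3 callus arrays and 12.49, 12.50 and 12.48 in the 3 leaf arrays. The leaf arrays were nearly identical, and the groups lay far apart. The group means were 4.75 ± 0.337 and 12.5 ± 0.00857 (SD, n = 3), a log2 fold change of -7.75 ± 0.121 (SE, limma adjusted p = 4.33e-17), so that leaf exceeded callus 215-fold. The callus signal was dim, and RMA gives no background level, so the fold is not exact. In whole tissue, fewer cells that express a gene and less RNA of it per cell cannot be told apart. Photosynthetic leaf markers fell in the same arrays, as given above, and their part in the fall of SWEET11 was not tested.

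The other SWEET genes changed far less. SWEET2, whose protein lies in the vacuolar membrane and holds back sugar in roots, had signals of 5.94, 5.98 and 5.90 in callus and 7.69, 7.65 and 7.86 in leaf. The groups did not overlap, and leaf exceeded callus 3.48-fold (log2 fold change -1.80 ± 0.0953, SE, limma adjusted p = 8.69e-11). SWEET1, a glucose uniporter of the plasma membrane, stood at 7.17, 7.23 and 7.36 in callus and at 8.21, 8.24 and 8.38 in leaf. Its arrays were apart by group as well, but the change of -1.03 ± 0.0843 lay just past 2-fold (limma adjusted p = 2.01e-08). The call of SWEET1 was lost when callus replicate 1 (-0.99) or leaf replicate 3 (-0.98) was left out, and on the hybridization (-0.77) and poly-A controls (-0.27).

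SWEET15 was the only one of the 15 measured SWEET genes called higher in callus (6.67%, against 16.4% of all genes). The SWEET genes called lower numbered 3 (20%, against 13.2%), and no family trait is read from these counts. SWEET15 is also known as SAG29, a gene of senescing leaves whose product helps feed the embryo in seeds. The signals were 5.97, 6.14 and 6.07 in callus and 5.17, 4.90 and 4.92 in leaf. All callus arrays lay above all leaf arrays, with a rise of 2.09-fold (log2 fold change 1.06 ± 0.119, SE, limma adjusted p = 8.67e-07). The call was lost after centring on TIP41 (0.48) and with quantile normalization applied again (0.98).

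SWEET16 and SWEET13 lay just short of the 2-fold threshold, and SWEET4 lay further below it, with leaf exceeding callus 1.77-fold. SWEET16, a sugar uniporter of the vacuolar membrane, had signals of 3.93, 4.02 and 4.14 in callus and 4.92, 5.21 and 4.94 in leaf, a ratio of leaf to callus of 1.99. All 3 callus arrays were below the first quartile. SWEET13, a sucrose exporter, was at 4.45, 4.23 and 4.62 in callus and at 5.53, 5.41 and 5.21 in leaf. SWEET4, a hexose uniporter, was at 4.44, 4.70 and 4.79 in callus and at 5.36, 5.46 and 5.58 in leaf. The groups did not overlap for any of these genes. The adjusted p in limma was 9.78e-07 for SWEET16, 8.14e-06 for SWEET13 and 2.48e-05 for SWEET4, at log2 fold changes of -0.996, -0.95 and -0.82. All 3 were called after centring on TIP41 (-1.58, -1.54 and -1.41). Quantile normalization applied again added SWEET16 (-1.02) and SWEET13 (-1.01) to the lower members, which then numbered 11 (34.4%, against 13.4% of all genes). SWEET16 was also called without callus replicate 3 (-1.05), leaf replicate 1 (-1.05) or leaf replicate 3 (-1.04), and SWEET13 without callus replicate 3 (-1.05) or leaf replicate 3 (-1.04).

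The remaining 8 SWEET genes had changes between -0.15 and 0.43. SWEET17, a fructose uniporter of the vacuolar membrane, had the widest spread of these between callus replicates. Its signals were 6.33, 6.47 and 5.95 in callus and 5.46, 6.09 and 5.90 in leaf, so the groups overlapped (log2 fold change 0.43, 95% interval 0.08 to 0.78, limma adjusted p = 0.0316). On the poly-A controls it was called higher (1.19). SWEET9, known for nectar secretion, and SWEET8, known for pollen, had log2 fold changes of -0.01 (95% interval -0.30 to 0.27) and -0.15 (95% interval -0.34 to 0.03). SWEET3, SWEET6, SWEET7, SWEET10 and SWEET14 lay between -0.08 and 0.10. The mean signals of these 7 genes without SWEET17 lay between 3.89 and 4.65, and SWEET7 and SWEET14 were below the first quartile of all 6 arrays. At signals this dim, a gene that kept its level and a gene below what the array can show look alike. SWEET10 and SWEET13 lie next to each other on the chromosome, without a protein-coding gene between them.

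**Figure D3:**
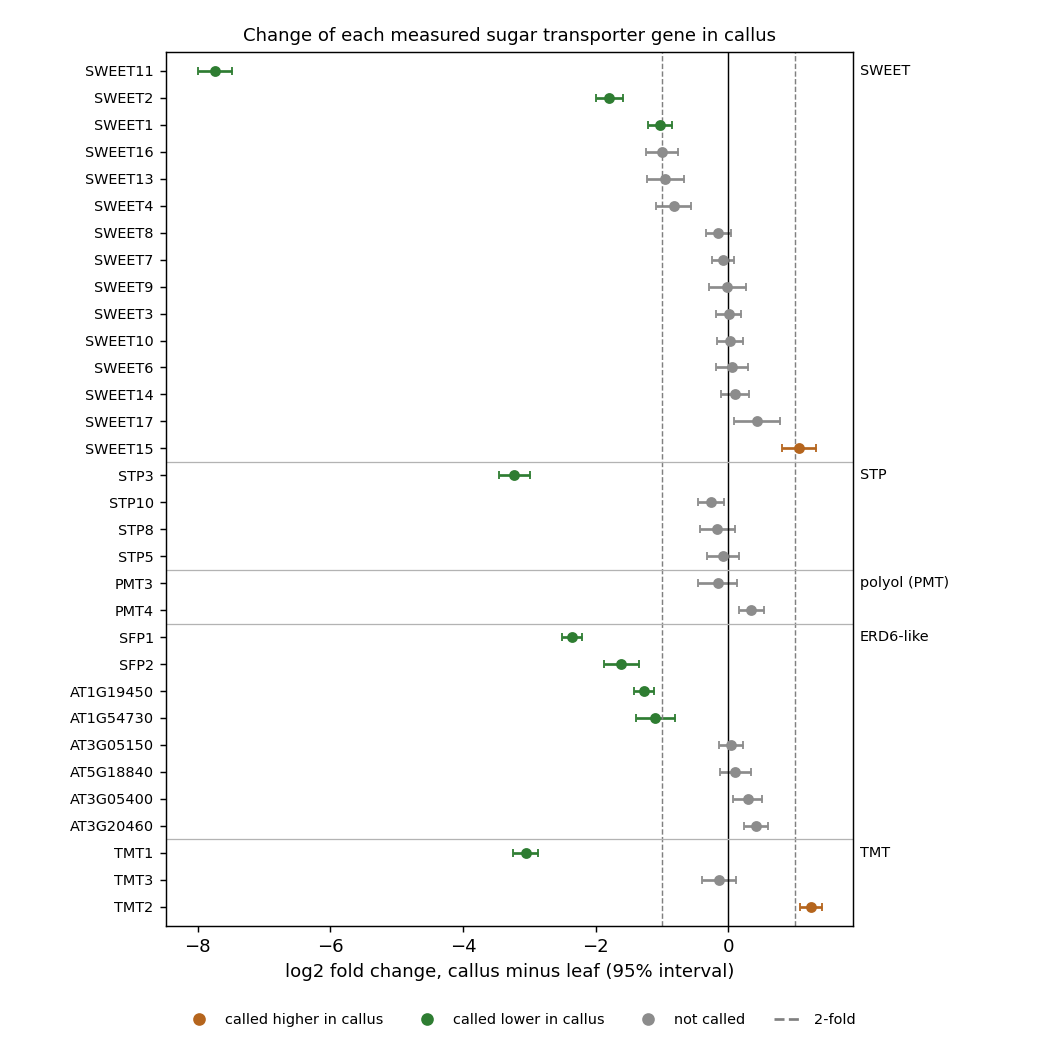
Log2 fold change, callus minus leaf (horizontal axis), with its 95% interval from limma, for the 32 measured sugar transporter genes grouped by family, with dashed lines at 2-fold. The 9 genes called lower (green) run from -7.75 to -1.03, and the 2 called higher (brown) are SWEET15 at 1.06 and TMT2 at 1.25.

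Of the 4 measured STP genes only STP3 was called as deposited (25%, against 29.6% of all genes). The same held on the hybridization controls (against 32.1%), the poly-A controls (against 42.3%) and TIP41 (against 30.3%). STP3 is a proton symporter of monosaccharides in green tissue, and wounding induces it. Its signal was 4.85, 5.12 and 5.19 in callus and 8.34, 8.32 and 8.18 in leaf. The groups lay far apart, and leaf exceeded callus 9.36-fold (log2 fold change -3.23 ± 0.109, SE, limma adjusted p = 3.22e-13). STP3 was the only measured member on the study's list of loci with increased H3K27me3 in callus, which rests on separate ChIP-chip arrays. A link between this mark and the lower signal of STP3 was not tested. ESL1 stands on the list of loci with decreased H3K27me3 but was not measured. STP10, a glucose symporter of pollen tubes, had a log2 fold change of -0.26 (95% interval -0.46 to -0.06, limma adjusted p = 0.0228). STP8 and STP5 were at -0.16 (95% interval -0.43 to 0.10) and -0.08 (95% interval -0.33 to 0.16), and their arrays overlapped between groups. The directions of these 3 values were turned on the poly-A controls.

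Neither measured polyol transporter was called as deposited. PMT4 had signals of 8.01, 8.05 and 8.13 in callus and 7.55, 7.85 and 7.76 in leaf. Its groups did not overlap, at a log2 fold change of 0.34 (95% interval 0.16 to 0.53, limma adjusted p = 0.00286). The change was -0.24 after centring on TIP41 and 1.11, past the threshold, on the poly-A controls. PMT3 overlapped between groups and was at -0.16 (95% interval -0.45 to 0.13).

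Of the 8 measured ERD6-like genes, 4 were lower in callus and 0 were higher as deposited (13.2% and 16.4% of all genes), while on the poly-A controls only SFP1 was still called lower and AT3G05400 (1.05) and AT3G20460 (1.17) were called higher (8.21% and 34.1% of all genes). SFP1, a sugar-porter gene of senescing leaves, changed most, from 9.69, 9.54 and 9.56 in leaf to 7.22, 7.24 and 7.25 in callus. The callus arrays were nearly equal, with a mean of 7.24 ± 0.0162 against 9.60 ± 0.0812 in leaf (SD, n = 3). Leaf exceeded callus 5.14-fold (log2 fold change -2.36 ± 0.0710, SE, limma adjusted p = 7.42e-14). SFP2, its neighbour on the chromosome without a protein-coding gene between them, stood at 4.67, 5.01 and 4.97 in callus and at 6.63, 6.44 and 6.43 in leaf. It did not overlap between groups either, and leaf exceeded callus 3.06-fold (log2 fold change -1.61 ± 0.125, SE, limma adjusted p = 9.95e-09). Within an array the difference SFP2 minus SFP1 was higher in callus by 0.75 on the log2 scale (exact permutation p = 0.1, two-sided, the smallest p that 3 arrays against 3 allow). With the poly-A controls SFP2 was no longer called (-0.85).

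AT1G19450, the closest relative of the vacuolar glucose exporter gene ERDL6, was at 7.86, 7.77 and 7.78 in callus and at 9.04, 9.11 and 9.07 in leaf. The arrays of each tissue lay close together, and leaf exceeded callus 2.42-fold (log2 fold change -1.27 ± 0.0684, SE, limma adjusted p = 1.03e-10). AT1G54730 was less even, with 5.21, 5.25 and 5.40 in callus and 6.16, 6.71 and 6.29 in leaf (log2 fold change -1.10 ± 0.139, SE, limma adjusted p = 3.56e-06). When leaf replicate 2, the highest of its leaf arrays, was left out, AT1G54730 was at -0.94 and not called. On the poly-A controls both genes lost their calls (-0.51 and -0.34), and AT1G54730 also on the hybridization controls (-0.84). The other 4 ERD6-like genes lay on the opposite side of 0. AT3G20460 was at 0.41 (95% interval 0.23 to 0.59) and AT3G05400 at 0.29 (95% interval 0.07 to 0.51), both without overlap between groups. AT5G18840 and AT3G05150 overlapped, at 0.10 and 0.04, and AT3G05150 was below the first quartile of all 6 arrays. The signs of these 4 values turned after centring on TIP41.

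The vacuolar sugar loaders TMT1 and TMT2 moved in opposite directions as deposited. TMT1 had signals of 6.37, 6.12 and 6.24 in callus and 9.36, 9.24 and 9.32 in leaf. Every leaf array was far above every callus array, exceeding callus 8.33-fold in the mean (log2 fold change -3.06 ± 0.0848, SE, limma adjusted p = 2.78e-14). TMT2 went from 7.34, 7.49 and 7.47 in leaf to 8.69, 8.64 and 8.70 in callus. It rose 2.37-fold without overlap between groups (log2 fold change 1.25 ± 0.0755, SE, limma adjusted p = 4.71e-10). After centring on TIP41 the change of TMT2 was 0.66 and not called, while TMT1 was called lower under each scaling. TMT3 was at -0.15 (95% interval -0.40 to 0.11) and overlapped between groups.

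A difference taken within each array does not depend on how the arrays were centred. TMT2 minus TMT1 was 2.33, 2.52 and 2.46 in the callus arrays and -2.02, -1.75 and -1.84 in the leaf arrays. The change of this difference was 4.30 on the log2 scale, or 19.8-fold, in the same direction for all 3 arrays of each group (exact permutation p = 0.1, two-sided, the smallest p possible here). The values show that these genes changed unequally in these arrays, not which of them stayed the same. This pair, like SFP1 with SFP2, was chosen after the values were seen, so the permutation p of either pair adds no support. The probe sets differ in brightness per transcript, so the sign within a tissue does not say which gene had more RNA.

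Around these transporters, 15 of 73 listed genes of sugar metabolism and of sugar transport in plastids and vacuoles were measured. Of these, 4 were higher and 4 lower in callus (26.7% each, against 16.4% and 13.2% of all genes). Of 13 listed genes for hexose and fructose kinases 6 were measured. The hexokinase genes HXK1, HXK2, HXK3, HKL1, HKL2 and HKL3 were not among them. Of the 6 measured genes, 2 were called higher, 0 lower and 4 were not called. AT2G31390, for a fructokinase, was at 12.21, 12.08 and 12.18 in callus and at 8.26, 8.28 and 8.20 in leaf, a rise of 15.01-fold (log2 fold change 3.91 ± 0.0562, SE, limma adjusted p = 2.05e-17). AT5G51830, another fructokinase gene, was at 9.02, 8.98 and 8.94 in callus and at 6.07, 5.94 and 5.64 in leaf, a rise of 8.58-fold. CWINV6, of the cell wall invertase family, whose product splits fructans, was at 7.73, 7.82 and 8.00 in callus and at 4.72, 4.75 and 4.66 in leaf, a rise of 8.80-fold. For none of these 3 genes did the groups overlap. VTC4, for an inositol and galactose phosphatase, lay just past the threshold at 1.03. It was no longer called once the arrays were set to TIP41 (0.45), nor when callus replicate 2 (0.98) or leaf replicate 1 (0.96) was left out.

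SPSC, for a sucrose phosphate synthase of leaves, had signals of 3.87, 4.13 and 4.17 in callus and 9.01, 9.11 and 9.05 in leaf. The groups were far apart, and leaf exceeded callus 32.01-fold (95% interval of the log2 fold change -5.23 to -4.77, limma adjusted p = 1.47e-15). All 3 callus arrays of SPSC lay below the first quartile, so this fold is not exact. PSUT, which encodes a sugar exporter of the plastid envelope, was at 5.71, 5.70 and 5.83 in callus and at 9.43, 9.26 and 9.33 in leaf, where it exceeded callus 12.1-fold. VINV1, for a vacuolar invertase, was 4.52-fold higher in leaf. AT2G35840, for a sucrose phosphatase, was at -1.20 and lost its call on the hybridization (-0.94) and poly-A controls (-0.44). The other 7 genes had log2 fold changes between -0.89 and 0.89. Among them AT3G59480, a fructokinase gene, was called higher on the hybridization (1.15) and poly-A controls (1.65) and when leaf replicate 2 was left out (1.06). AT4G10260 was called higher on the poly-A controls (1.28), and AT1G66430 (-1.37), AT1G05030 (-1.48) and AT5G17010 (-1.20) were called lower with TIP41. Sucrose synthases, raffinose synthesis genes and genes of sugar starvation had 0 measured members.

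**Figure D4:**
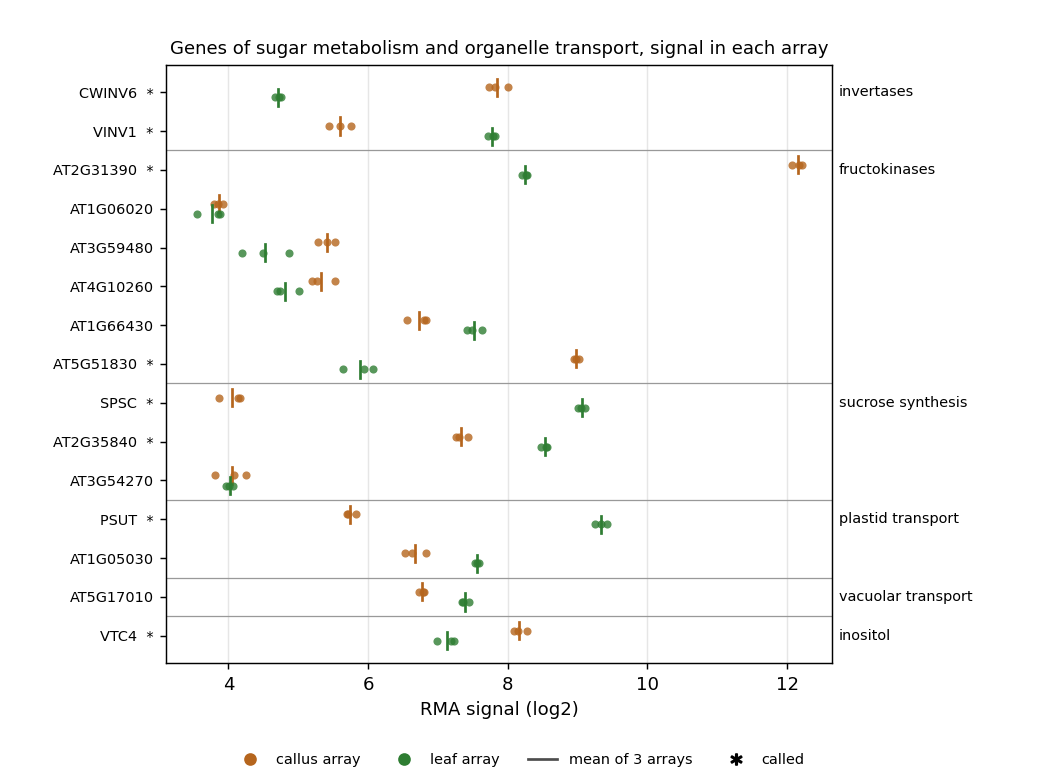
Log2 RMA signal (horizontal axis) of the 15 measured genes of sugar metabolism and organelle sugar transport in 3 callus arrays (brown points) and 3 leaf arrays (green points), with group means as vertical bars and called genes starred. AT2G31390 rises from about 8.25 in leaf to 12.2 in callus, whereas SPSC goes from 9.06 in leaf to 4.06 in callus.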

How the data were processed

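The values deposited by the authors are on the log2 scale, with 1 value for every probe set on every array. The submitters' notes name RMA and Partek, and their versions are not given in the sources here. The table held 22810 probe sets, 64 of them controls, and 0 columns beyond the 6 arrays. Of the others, 13513 had 1 gene in the platform's table, 503 had several and 8730 were not listed and are unnamed here. Where several probe sets had the same gene, that of highest mean was kept, which left 13356 genes. Symbols came from the TAIR10.1 RefSeq gene table or the list, and loci from that table alone.

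The contrast of callus and leaf was fitted with limma 3.58.1 (R 4.3.3), with eBayes set to follow the trend in intensity and p-values adjusted by the Benjamini-Hochberg method over the 13356 genes. Every measured member is named. Values per array are given for called members and for those near the threshold. On simulated arrays of 13356 genes, 100 of 100 genes shifted by 1.5 and 100 of 100 shifted by 3 on the log2 scale were recovered, with 0 false calls. The simulated noise was independent between genes, and both shifts lay well past the 2-fold threshold. The simulation therefore checks that the code runs as intended. It does not bear on calls near 2-fold or on how the arrays were scaled. The members, the lists and the tests were chosen with earlier results of these data known. Alternatives covered thresholds, moderation, scaling, filters, probe sets, a replicate block and leaving out each array. Protein and promoter sequences were not analysed here.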

Additional observations from a re-analysis of the deposited data

How the results depend on the processing

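Across 19 alternatives, SWEET11 (-8.33 to -6.99), STP3 (-3.81 to -2.47), TMT1 (-3.65 to -2.30) and SFP1 (-2.95 to -1.60) kept their direction and their call, and SWEET2 (-2.39 to -1.04) lost its call only at a threshold of more than 4-fold.

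With no fold threshold 19 members (59.4%) were called, 6 of them higher, and 13 other sugar genes (86.7%), 7 of them lower, against 61.2% of all genes. At more than 4-fold 4 members were called, 0 higher and 4 lower, and no direction is read from these counts without a share of all genes. Higher members numbered 1 with quantile normalization applied again (3.13%, against 16.1% of all genes). They numbered 1 with genes below the median signal left out (SWEET15 was then not tested), 6 on the poly-A controls and 0 on TIP41. Lower members numbered 5 on the poly-A controls, and lower other sugar genes 7 on TIP41. Without 1 array at a time, 10 to 13 members were called. The replicate numbers gave no sign of pairing, with correlations of same-numbered deviations of -0.108, 0.0719 and -0.0426. Deviations of different numbers had correlations from -0.111 to 0.124. With 3 arrays per group such values cannot exclude pairing. With a replicate block 11 members were called, 2 higher and 9 lower. Shares of all genes are not given here for the replicate block, for leaving out an array or for leaving out dim genes.

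Reversals touched only members and other sugar genes that were not called as deposited. On the hybridization controls SWEET7 was at 0.18, SWEET8 at 0.11, SWEET9 at 0.25, STP5 at 0.18, STP8 at 0.10, PMT3 at 0.10 and TMT3 at 0.11. On the poly-A controls SWEET7 was at 0.68, SWEET8 at 0.61, SWEET9 at 0.75, STP5 at 0.68, STP8 at 0.60, STP10 at 0.50, PMT3 at 0.60, TMT3 at 0.61 and AT5G17010 at 0.15. On TIP41 SWEET3 was at -0.58, SWEET6 at -0.53, SWEET10 at -0.56, SWEET14 at -0.49, SWEET17 at -0.15, PMT4 at -0.24, AT3G05150 at -0.54, AT3G05400 at -0.30, AT3G20460 at -0.17, AT5G18840 at -0.48, AT1G06020 at -0.49, AT4G10260 at -0.0701 and AT3G54270 at -0.56. Without 1 array, SWEET9 ranged from -0.16 to 0.13, SWEET3 from -0.0208 to 0.0252, SWEET6 from -0.0164 to 0.15, SWEET10 from -0.0184 to 0.0551, STP5 from -0.17 to 0.0290, AT3G05150 from -0.00278 to 0.0712, AT1G06020 from -0.00924 to 0.16 and AT3G54270 from -0.0718 to 0.15. The centred values follow from construction, since centring moves every gene by the same amount. Dim signals limit what can be said of members near the first quartile.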
